A study of Mus musculus with 6 samples.

Results

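Voltage-gated sodium and calcium channels comprised 32 protein-coding genes of the 54532 genes in the deposited files. They were chosen by symbol alone: 10 genes of sodium channel alpha subunits (such as Scn1a and Scn8a), 4 of sodium channel beta subunits (such as Scn2b and Scn4b), 10 of calcium channel alpha1 subunits (Cacna1a to Cacna1i and Cacna1s), 4 of alpha2delta subunits (Cacna2d1 to Cacna2d4) and 4 of calcium channel beta subunits (Cacnb1 to Cacnb4). The tissue was cervical spinal cord and the strain C57BL/6, with 3 libraries from mice given 50 mg of 5% imiquimod cream on shaved nape skin and 3 from mice given as much vehicle cream, in both groups daily for 2 days. Imiquimod, an agonist of Toll-like receptor 7, was used to induce a dermatitis that resembles psoriasis, so the comparison is of the cords of mice with inflamed and with uninflamed neck skin. The labels call the libraries of a group biological replicates, and they give neither the age or sex of the mice nor whether cords were pooled. The question for the channels is whether their transcripts differed between the imiquimod and the vehicle cords.

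A voltage-gated channel opens when the membrane depolarises. Sodium channel alpha subunits form the pore that starts and carries the action potential, and the single-pass beta subunits set its gating and hold it at sites such as the axon initial segment and the node of Ranvier. Calcium channel alpha1 subunits form the pores through which calcium enters at synapses and cell bodies, where it triggers transmitter release and signals to the nucleus, while alpha2delta and beta subunits bring those pores to the membrane.

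Of the 32 genes, 25 had a mean of at least 0.5 FPKM (fragments counted per kilobase of exon, relative to the size of the library) in either group and entered the test. The other 7, among them Scn4a, Scn10a, Scn11a, Cacna1f, Cacna1s and Cacna2d4, did not. A single channel gene passed at a limma adjusted p under 0.05: Scn4b, which was lower in the imiquimod cords, and none was higher. That is 4% of the 25, while 14.1% of all 16513 genes tested passed (8.74% higher and 5.34% lower). At an unadjusted p under 0.05, 5 channel genes were lower and 1 was higher, 24% of the 25 against 30.2% of all genes tested. The share of channel genes that passed was thus not above that of the transcriptome. Of the 25 differences, 18 (72%) were below 0, against 50.9% over all genes tested, and their median was -0.14 on the log2(FPKM + 0.1) scale, against -0.01 over all genes tested.

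**Figure D1:**
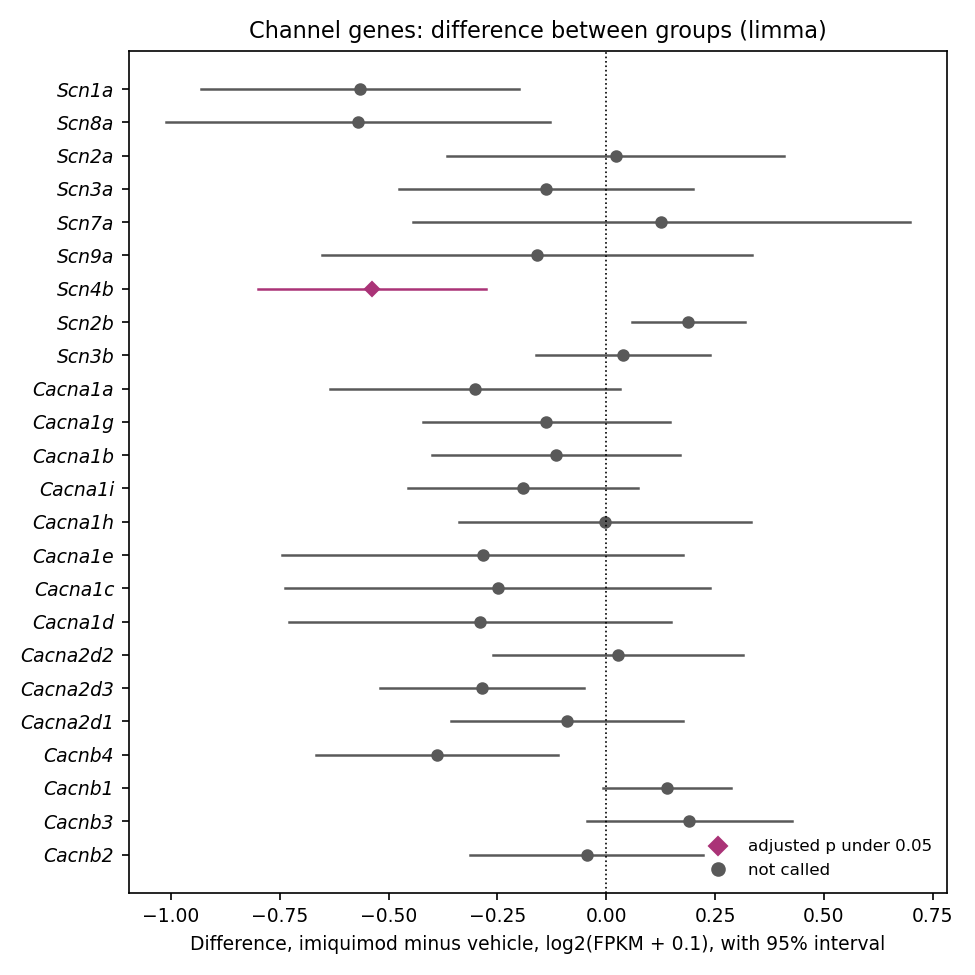
Difference between the imiquimod and vehicle means of 24 of the 25 channel genes tested, in log2(FPKM + 0.1), with 95% intervals from the limma fit. Purple diamonds mark an adjusted p under 0.05 and grey circles the other genes: Scn4b at -0.54 is the only diamond, and Scn1a and Scn8a lie as low with wider intervals.

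The depth behind these values was 18174411 to 20672881 fragments in the vehicle libraries and 21242415 to 23200996 in the imiquimod libraries, as recovered from the FPKM values. All 3 imiquimod libraries were deeper than all 3 vehicle libraries. Markers of the labelled tissue were abundant: Nefl, a neurofilament subunit, had a mean of 365 FPKM over the 6 libraries, and Mbp, a myelin protein, 2789 FPKM. Voom's quality weights, low where a library departs from its group, were 1.63 to 1.80 in vehicle and 0.484 to 0.650 in imiquimod libraries. For Gapdh, the glycolytic enzyme, imiquimod library 3 stood apart at 26.4 FPKM, against 1.56 to 2.15 FPKM elsewhere. All these Gapdh values are far under the means of Aldoc (464 FPKM) and Eno2 (167 FPKM), 2 other glycolytic enzymes, and the reason was not tested. The spread among the imiquimod libraries was wider than among the vehicle libraries for many of the values below. In bulk tissue, fewer cells of a type and less RNA per cell cannot be told apart.

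The only channel gene that passed encodes a sodium channel beta subunit. Scn4b, on chr9:45138395-45154152 (GRCm38, plus strand; 4982 bases of exon), makes the beta subunit tied to resurgent sodium current in fast-firing neurons. It was at 112, 115 and 109.8 FPKM in vehicle libraries 1, 2 and 3 and at 72.4, 92.3 and 69.7 FPKM in imiquimod libraries 1, 2 and 3. The groups did not overlap, and imiquimod library 2 lay nearest the vehicle libraries. Scn4b fell from 113 ± 2.85 to 78.1 ± 12.4 FPKM (SD, n = 3 per group), to 69.4% of the vehicle mean, a log2 difference of -0.54 ± 0.11 (SE; 95% interval -0.80 to -0.28; limma adjusted p = 0.0238). The call rested on all but one of the libraries: leaving out imiquimod library 2 gave an adjusted p of 0.00339, while leaving out any other library gave 0.0615 to 0.0900.

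The other beta subunit genes did not pass. Scn2b, whose product is linked to the alpha subunit by a disulfide bond, lay the other way, at 29.6, 29.97 and 31.2 FPKM in vehicle and 35.2, 34.7 and 33.6 FPKM in imiquimod libraries. Here every imiquimod library was above every vehicle library, by a log2 difference of 0.19 ± 0.06 (SE, limma adjusted p = 0.0652). Scn3b, a beta subunit that associates with the alpha subunit without a covalent bond, had 4.52 to 4.98 FPKM in vehicle and 4.53 to 5.27 FPKM in imiquimod libraries, with overlapping groups. Scn2b and Scn4b are neighbours on chromosome 9, 8.325 kb apart on the same strand, with differences of opposite sign.

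Among the sodium channel alpha subunits, Scn1a and Scn8a carried the family. In the vehicle libraries Scn1a made up 50.3% and Scn8a 36.5% of the summed FPKM of the 10 genes. Scn1a is the alpha subunit of fast-spiking inhibitory neurons and of many motor neurons, and Scn8a is the main sodium channel of mature nodes of Ranvier. Their differences were as large as that of Scn4b and their imiquimod libraries more scattered. The sequences before a RefSeq start of Scn1a, Scn8a and Scn2b are shown as examples of genes in the same cords with low, low and high imiquimod values, with CG dinucleotides in capitals. They come from RefSeq (GRCm38.p6) and run 5′ to 3′ on the strand of the gene, over chr2:66440841-66441087 (minus strand) for Scn1a, chr15:100870395-100870644 (plus strand, 1 of 2 starts listed) for Scn8a and chr9:45117626-45117781 (plus strand) for Scn2b. The stretch of Scn8a lies inside the gene as GENCODE annotates it, since that annotation has an earlier start, and outside its protein-coding transcripts' exons.
Scn1a: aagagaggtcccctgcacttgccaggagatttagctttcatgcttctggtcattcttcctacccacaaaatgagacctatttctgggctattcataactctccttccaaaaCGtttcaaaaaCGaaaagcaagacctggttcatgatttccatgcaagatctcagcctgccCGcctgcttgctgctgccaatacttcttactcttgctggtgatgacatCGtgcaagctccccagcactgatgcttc
Scn8a: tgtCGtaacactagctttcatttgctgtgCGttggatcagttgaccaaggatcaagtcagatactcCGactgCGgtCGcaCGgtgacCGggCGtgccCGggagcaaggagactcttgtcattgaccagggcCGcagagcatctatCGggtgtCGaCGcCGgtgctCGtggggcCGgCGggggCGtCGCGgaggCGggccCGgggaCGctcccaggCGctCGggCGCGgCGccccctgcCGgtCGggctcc
Scn2b: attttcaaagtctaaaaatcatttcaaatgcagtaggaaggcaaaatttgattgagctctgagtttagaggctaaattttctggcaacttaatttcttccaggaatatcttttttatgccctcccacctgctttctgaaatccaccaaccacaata
The stretch of Scn1a holds 4 CG dinucleotides in 247 bases, that of Scn8a 30 in 250 and that of Scn2b none in 156. Over all 32851 RefSeq windows of 250 bases before a gene start, the median was 6, with quartiles of 2 and 16. Scn1a and Scn8a, whose values were alike in every library relative to vehicle, thus lay on either side of that median. On both strands, GGGCGG was found in 13 of the 34 windows of channel genes (24 of 32 genes matched) and in 32.7% of all windows. TATAAA was in 2 of 34 and 12.4%, and the core of the interferon-stimulated response element in 0 of 34 and 2.98%. These matches describe letters in a window and nothing about a factor.

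Scn1a, on chr2:66270778-66440840 (minus strand), was at 34.2, 34.5 and 32.9 FPKM in the vehicle libraries and at 18.5, 29.2 and 22.1 FPKM in imiquimod libraries 1, 2 and 3. All imiquimod libraries were below all vehicle libraries, library 1 the lowest and library 2 the highest. The log2 difference was -0.57 ± 0.15 (SE; 95% interval -0.93 to -0.20), a mean at 68.7% of vehicle, and it did not pass (limma adjusted p = 0.0539). Scn8a, on chr15:100869858-101045938 (plus strand), was at 24.96, 25.9 and 22.9 FPKM in vehicle and at 12.6, 22.0 and 16.2 FPKM in imiquimod libraries. It had the same order of imiquimod libraries without overlap, with a log2 difference of -0.57 ± 0.19 (SE; 95% interval -1.01 to -0.13; limma adjusted p = 0.0880). Without imiquimod library 2, both passed, at limma adjusted p = 0.00530 for Scn1a and 0.0109 for Scn8a. Over all genes, 2986 of 16632 passed in that fit, against 2326 of 16513 in the main fit.

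The other alpha subunits were lower in level and none passed. Scn2a, the channel of unmyelinated axons and immature initial segments, had 5.02 to 5.57 FPKM in vehicle and 4.06 to 6.37 FPKM in imiquimod libraries, a log2 difference of 0.02 ± 0.16 (SE, limma adjusted p = 0.944). Its share of the family's summed FPKM was 7.30% to 8.53% in vehicle and 9.64% to 13.1% in imiquimod libraries, without overlap. Scn3a, mainly an embryonic channel, had 1.51 to 1.80 against 1.27 to 1.67 FPKM. Scn7a, a sodium sensor rather than a voltage-gated pore, had 0.815 to 1.01 against 0.760 to 1.42 FPKM, and Scn9a, the peripheral sensory channel, 0.612 to 0.823 against 0.615 to 0.735 FPKM. All 3 overlapped between the groups. In the vehicle libraries the levels ran in the order Scn1a, Scn8a, Scn2a, Scn3a, Scn7a and Scn9a. Of these, only Scn7a and Scn9a had neighbouring ranges that overlapped.

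**Figure D2:**
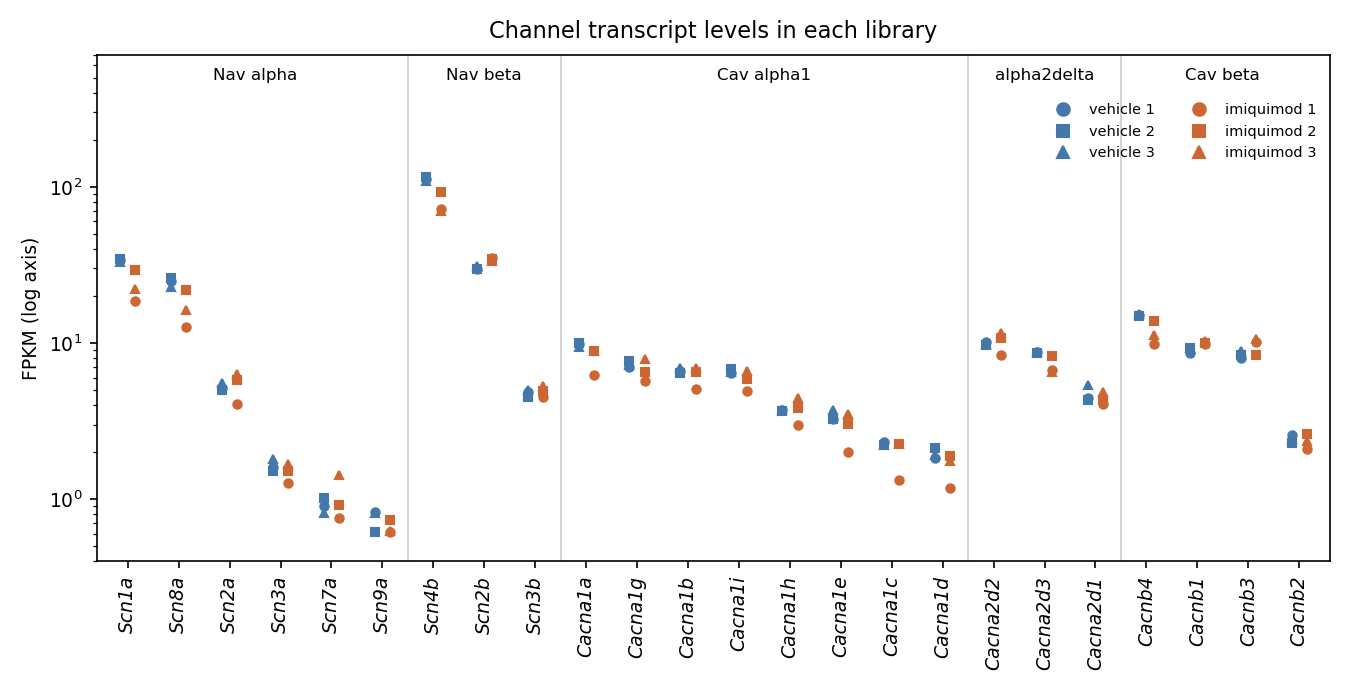
FPKM of 24 of the 25 channel genes tested in each of the 6 libraries, on a log axis, by family and ordered by mean level. Circles, squares and triangles are libraries 1, 2 and 3, with vehicle in blue and imiquimod in orange. Scn4b lies highest, and the levels shown span 0.612 FPKM (Scn9a) to 115 FPKM (Scn4b).

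None of the 8 calcium channel alpha1 genes tested passed in limma, at an unadjusted p under 0.05 (0 genes) or with voom weights (0 genes), and all 8 differences were below 0, with a median of -0.22. Cacna1a, the P/Q-type pore that drives release at most fast central synapses, was at 9.83, 10.1 and 9.39 FPKM in vehicle and at 6.24, 8.82 and 8.95 FPKM in imiquimod libraries. The groups did not overlap, and library 1 lay furthest down, with a log2 difference of -0.30 ± 0.14 (SE, limma adjusted p = 0.203). Cacna1g, a T-type pore active near rest, was at 6.98, 7.69 and 7.28 FPKM in vehicle and at 5.68, 6.56 and 7.85 FPKM in imiquimod libraries, which spanned the vehicle range. Its log2 difference was -0.14 ± 0.12 (SE, limma adjusted p = 0.483).

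The remaining presynaptic pores were Cacna1b, the N-type channel of spinal sensory synapses, with 6.42 to 6.91 against 5.07 to 6.96 FPKM, and Cacna1e, the R-type channel, with 3.24 to 3.69 against 2.01 to 3.50 FPKM. The other T-type genes were Cacna1i with 6.47 to 6.79 against 4.91 to 6.61 FPKM and Cacna1h with 3.67 to 3.73 against 2.98 to 4.44 FPKM. The L-type genes of neurons, which couple activity to transcription, were Cacna1c with 2.22 to 2.34 against 1.32 to 2.26 FPKM and Cacna1d with 1.82 to 2.12 against 1.18 to 1.89 FPKM. In each of these 6 genes the groups overlapped and imiquimod library 1 was the lowest of the 6 libraries. In the vehicle libraries Cacna1a was highest and Cacna1g next, and the ranges of Cacna1b and Cacna1i overlapped, as did those of Cacna1h and Cacna1e.

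The alpha2delta subunits, the extracellular partners that bind gabapentin in the case of Cacna2d1 and Cacna2d2, did not pass. Cacna2d2 was at 10.2, 9.71 and 9.88 FPKM in vehicle and at 8.32, 10.8 and 11.52 FPKM in imiquimod libraries, on both sides of the vehicle values (log2 difference 0.03 ± 0.12, SE, limma adjusted p = 0.907). Cacna2d3, a subunit linked to heat pain and to synaptic transmission, was at 8.81, 8.64 and 8.69 FPKM in vehicle and at 6.70, 8.27 and 6.53 FPKM in imiquimod libraries. It was lower without overlap, by -0.29 ± 0.10 (SE, limma adjusted p = 0.103), and passed without imiquimod library 2 (limma adjusted p = 0.0130). Cacna2d1, the main gabapentin target, had 4.32 to 5.38 against 4.07 to 4.84 FPKM, with overlapping groups.

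The cytoplasmic calcium channel beta subunits pointed both ways. Cacnb4, the beta subunit often paired with P/Q-type pores, was at 15.2, 14.8 and 15.4 FPKM in vehicle and at 9.90, 13.8 and 11.2 FPKM in imiquimod libraries. The groups did not overlap, library 1 was lowest, and the log2 difference was -0.39 ± 0.12 (SE, limma adjusted p = 0.0709; 0.00930 without imiquimod library 2). Of its exon bases, 15.99% lie opposite a gene on the other strand, and the strand setting of the counting is not given in the sources used here, so that part of its value is uncertain. Cacnb1, the isoform of skeletal muscle and brain, was at 8.67, 9.27 and 9.29 FPKM in vehicle and at 9.79, 9.93 and 10.3 FPKM in imiquimod libraries. Every imiquimod library was higher, by a log2 difference of 0.14 ± 0.06 (SE, limma adjusted p = 0.187). Cacnb3, often found with N-type pores, had 8.03 to 8.93 against 8.42 to 10.6 FPKM, and Cacnb2, the cardiac beta subunit, 2.28 to 2.58 against 2.10 to 2.63 FPKM. Both overlapped between the groups, and Cacnb3 passed as higher without imiquimod library 2 (limma adjusted p = 0.0467). Cacnb4 made up 42.6% to 44.1% of the summed FPKM of its family in vehicle and 31.0% to 39.6% in imiquimod libraries.

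Over all 25 genes, 7 were lower without overlap between the groups (among them Scn1a, Scn8a, Scn4b, Cacna1a, Cacna2d3 and Cacnb4) and 2 were higher (Scn2b and Cacnb1). Over all genes tested, 18.0% were lower and 19.8% higher without overlap, 37.9% together. The 7 lower channel genes are 28% of the 25, and the 9 together are 36%. Summed over the family, the sodium channel alpha genes were at 67.4 ± 1.89 FPKM in vehicle and 49.1 ± 11.2 FPKM in imiquimod libraries (SD, n = 3 per group), 72.9% of vehicle. This sum did not overlap between the groups. The sums of the calcium channel families overlapped, at 88.6% of vehicle for alpha1, 93.1% for alpha2delta and 96.0% for beta. These sums carry no test.

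**Figure D3:**
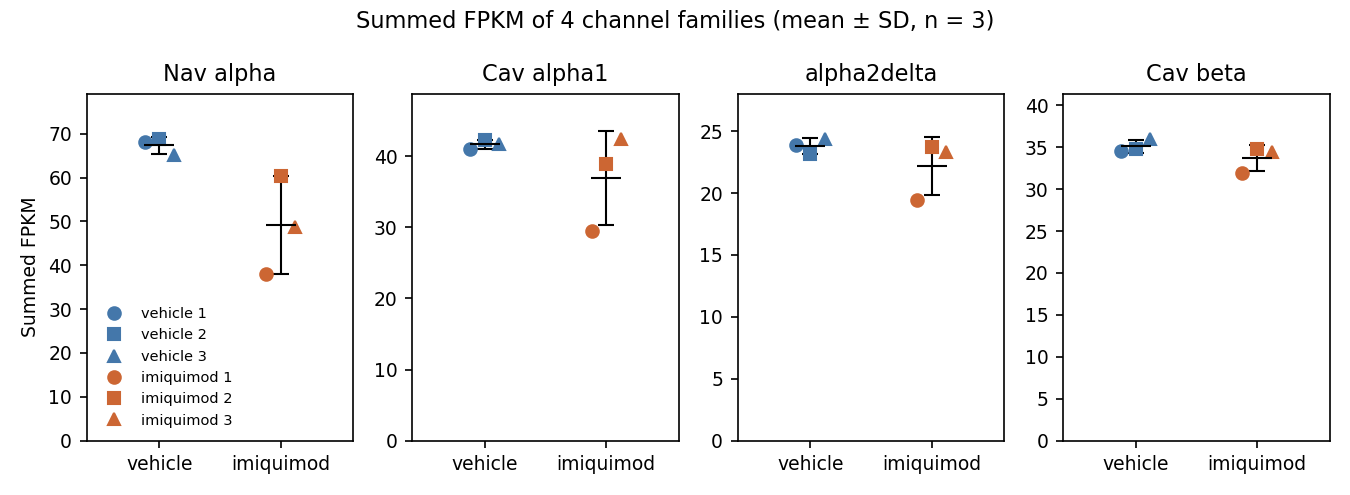
Summed FPKM of 4 channel families in each library, with group means and SD (n = 3) as black bars. Every axis starts at 0. The sodium channel alpha sums are 65.2 to 68.8 in vehicle and 38.1 to 60.4 in imiquimod libraries, while the calcium channel beta sums are 34.5 to 36.0 and 31.96 to 34.8.

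The imiquimod libraries differed among themselves, and exon length moved with that difference. Imiquimod library 1 was the lowest of the 3 imiquimod libraries for 20 of the 25 channel genes, library 2 for 1 and library 3 for 4. Channel transcripts are long: their median exon length was 9942 bases, against 3822 over all genes tested, and 17 of the 25 had 8 kb or more. Over all 2516 genes tested of that length, the median difference from the vehicle mean, in log2(FPKM + 0.1), was -0.23 in imiquimod library 1, -0.02 in library 2 and -0.04 in library 3. For the 17 channel genes it was -0.38, -0.10 and -0.01. Long genes as a whole were thus lowest in the library in which the channel genes were lowest. The 7 channel genes of 4 to 8 kb were also lowest in library 1. Their medians were -0.08, 0.05 and 0.18 in libraries 1, 2 and 3, against -0.03, 0.005 and 0.003 over all genes of that length. Scn4b (4982 bases), which is among them, was lowest in library 3. After trends on length and GC content had been taken out of every library, 3 channel genes passed in limma, Scn4b, Scn1a and Scn8a, all lower, with adjusted p = 0.0171 for Scn4b. The log2 differences of Scn1a and Scn8a were then nearer 0, at -0.48 for both, against -0.57 in the main fit. Their SEs were smaller too, at 0.12 and 0.13 against 0.15 and 0.19. That of Scn4b was -0.64, against -0.54 in the main fit. Over all genes tested, 2808 were then called, against 2326 in the main fit.

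**Figure D4:**
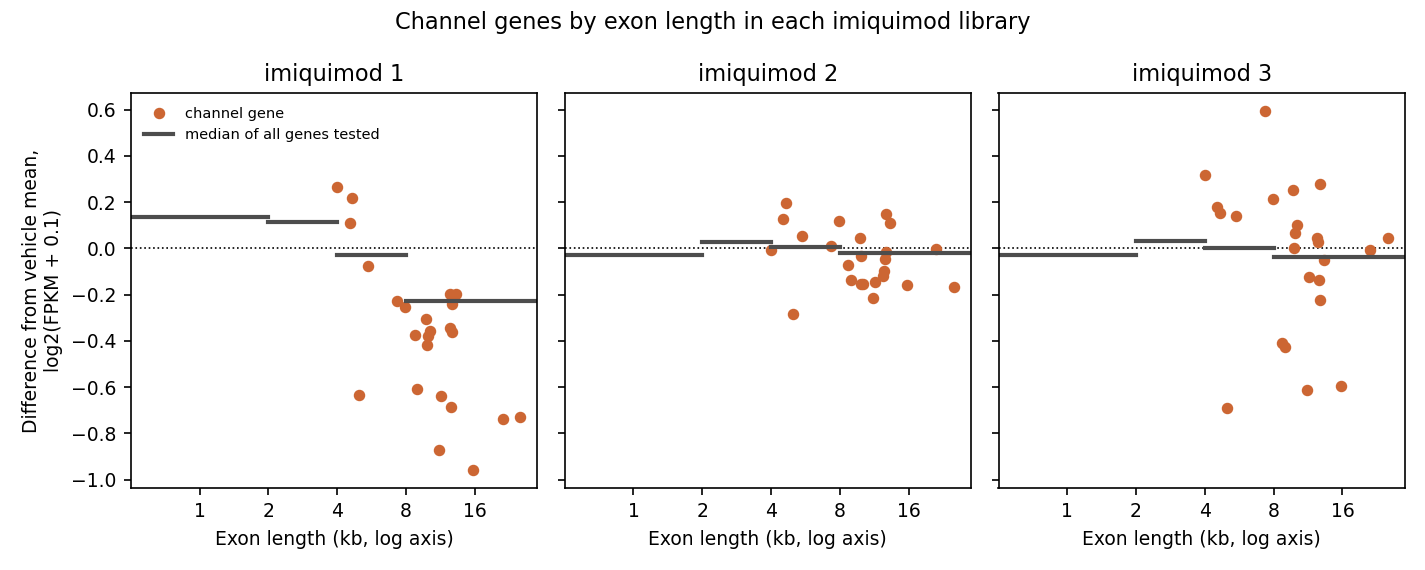
Difference of each imiquimod library from the vehicle mean, in log2(FPKM + 0.1), against exon length (log axis) for 24 of the 25 channel genes tested (orange points), with the median of all genes tested in each length range (grey bars). In imiquimod library 1 the grey bar at 8 kb and over lies at -0.23 and most channel genes of that length lie at or under it, while in libraries 2 and 3 it lies at -0.02 and -0.04.

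Proteins that bind or place channels, or are named as channel subunits, were read from 7 lists of 55 symbols. Of these, 54 matched a gene and 50 were tested. Of the 50, 6 were lower and 0 higher in limma, with a median difference of -0.16, against 5.34% lower and 8.74% higher over all genes tested. At an unadjusted p under 0.05, 16 were lower and 4 higher, against 30.2% of all genes tested in either direction. With voom weights 8 passed as lower and 0 as higher, against 2778 of all 16513 genes tested in either direction. The list for the axon initial segment and node, some of whose proteins hold sodium channels in place, gave 3 lower of 12 in limma. These were Ank3 (ankyrin-G, log2 difference -0.76, adjusted p = 0.0365), Sptbn1 (a spectrin, -0.36, 0.0475) and Cntn1 (contactin, -0.49, 0.0177). Sptbn4, the other spectrin listed, did not pass. Ank3 was at 15.2, 15.3 and 14.7 FPKM in vehicle and at 6.57, 11.2 and 9.51 FPKM in imiquimod libraries, with library 1 lowest and library 2 highest as for Scn1a and Scn8a. Fgf12, a cytoplasmic factor that binds the tail of sodium channels, was lower by -0.31 (limma adjusted p = 0.0497), 1 of 4 of its kind. Fam155a, a subunit of the sodium leak channel, was lower by -0.32 (limma adjusted p = 0.0200), and Camk2g, a calmodulin-dependent kinase, by -0.29 (limma adjusted p = 0.0261). The genes tested included 6 named as calcium channel gamma subunits, 10 of presynaptic scaffold proteins and 5 of RGK and Stac regulators. None of these passed in the main limma fit or with voom weights. At an unadjusted p under 0.05, these were 1 lower and 2 higher gamma subunits, 2 lower scaffold proteins and 1 higher regulator. From these lists, Cacng4, Rimbp2 and Rims1 passed in limma with length and GC trends removed, and Cacng2 and Rims1 passed without imiquimod library 2. The call of Sptbn1, a transcript of over 8 kb, was lost with length and GC trends removed, and the other 5 were kept. None of the 6 calls was made without vehicle library 1, 2 or 3 or without imiquimod library 3.

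Neuronal markers were read beside the channels. Of 17 general neuronal markers, 2 were lower in limma, Rbfox3 and Elavl3, and none was higher. Over all genes tested, 5.34% were lower and 8.74% higher in limma. At an unadjusted p under 0.05, 9 of the 17 were lower and 1 was higher, against 30.2% of all genes tested in either direction. With voom weights, 7 of the 17 passed as lower and none as higher, against 2778 of all 16513 genes tested in either direction. The 15 other than Rbfox3 and Elavl3 did not pass in the main limma fit. They lay on both sides of 0, from Nefh (a neurofilament subunit, log2 difference -0.54) to Syt1 (a synaptic vesicle protein, 0.20), and the median of the 17 was -0.24. Their summed level was 2537 to 2672 FPKM in vehicle and 1852 to 2377 FPKM in imiquimod libraries. Of 7 tested markers of cholinergic and motor neurons, 4 were lower: Chat, the enzyme that makes acetylcholine (log2 difference -0.62, limma adjusted p = 0.0422), Prph, a neurofilament of motor and sensory axons (-0.88, 0.0352), Chodl, of fast motor neurons (-1.15, 0.0312), and Ret, a growth factor receptor (-0.57, 0.0492). The 8 genes listed summed to 104 to 112 FPKM in vehicle and 53.5 to 89.7 FPKM in imiquimod libraries, and imiquimod library 2 was nearest to vehicle, as for Scn4b, Scn1a and Scn8a. Each of these 6 calls was lost on leaving out any one vehicle library. None of the 25 neuronal and motor neuron genes was at 0. The part of these markers and of exon length in the channel values was not tested.

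**Figure D5:**
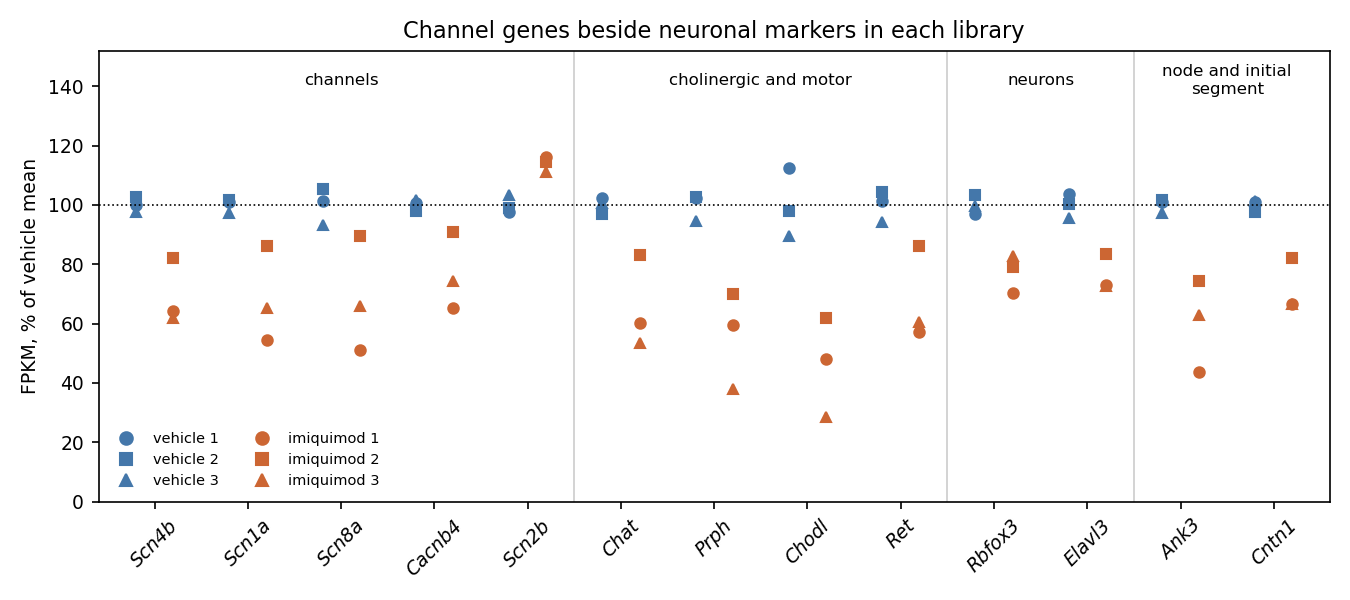
FPKM of 5 channel genes, 4 cholinergic and motor neuron markers, 2 neuronal markers and 2 node or initial segment genes in each library, as percent of the vehicle mean (dotted line at 100). In imiquimod libraries 1, 2 and 3, Scn4b was at 64.3%, 82.0% and 61.9%, Scn1a at 54.5%, 86.2% and 65.2%, and Chat at 60.3%, 83.1% and 53.6%. Scn2b alone is above 100 in all 3.

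Other cell types that a piece of cord can hold were checked in the same way, beside 5.34% lower and 8.74% higher over all genes tested in limma. Oligodendrocyte precursor markers were lower in 4 of 10 (Gpr17, Neu4, Enpp6 and Lhfpl3), with sums of 265 to 284 against 203 to 249.6 FPKM. Endothelial markers were higher in 4 of 7 and lower in 1, T and NK cell markers higher in 4 of 5, microglial markers higher in 2 and lower in 1 of 8, astrocyte markers higher in 1 and lower in 2 of 9, myelinating oligodendrocyte markers lower in 2 of 9, and pericyte and smooth muscle markers higher in 1 and lower in 1 of 7. Schwann cell markers, carried by spinal roots, passed in 0 of 6 in limma (1 lower at an unadjusted p under 0.05, none with voom weights), with sums of 194 to 273 FPKM in vehicle and 52.2 to 196 FPKM in imiquimod libraries. None of 7 meningeal fibroblast markers passed by any of these. Their part in the channel values was not tested either.

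The channels of other tissues were near the floor. Scn10a and Scn11a, the sodium channels of pain-sensing ganglion neurons, had 23 and 7 fragments in the 3 vehicle libraries together and 17 and 11 in the 3 imiquimod libraries. Of 11 sensory ganglion markers, Mrgprb4 had no fragment and Mrgprd had at most 0.018 FPKM, while Calca, which motor neurons also express, was at 20.9 to 27.6 FPKM. The summed level of the list was 25.4 to 28.1 FPKM in vehicle and 24.8 to 31.4 FPKM in imiquimod libraries. Scn4a, the skeletal muscle channel, had 5 and 4 fragments. Of the 10 skeletal muscle markers, 3 entered the test and none passed in limma, at an unadjusted p under 0.05 or with voom weights: Acta1, an actin (0.331 to 0.757 FPKM), Mylpf, a myosin light chain (1.06 to 1.78 FPKM), and Pvalb (114 to 153 FPKM), which spinal neurons also express. The other 7, among them the fast muscle myosins Myh1 and Myh4, had group means under 0.5 FPKM.

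Cacna2d4, a subunit of the retina, had 0.437 to 0.461 FPKM in vehicle and 0.363 to 0.400 FPKM in imiquimod libraries, lower without overlap, with a ratio per library size of 0.844 (95% interval 0.701 to 1.02). Cacna1f, the L-type pore of photoreceptors, had 3, 3 and 2 fragments in vehicle and 9, 11 and 10 in imiquimod libraries, all higher, with a ratio of 3.08 (95% interval 1.38 to 7.78). Cacna1s, the L-type pore of skeletal muscle, had 1, 2 and 3 against 11, 3 and 11 fragments, a ratio of 3.43 (95% interval 1.37 to 10.2). Of its exon bases, 20.0% lie opposite another gene. These exact intervals cover counting error only and not the spread between mice, and no gene of this kind was tested.

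Several of the sodium channel genes lie side by side, and their differences did not follow their position. On chromosome 2, Scn3a, Scn2a, Scn1a, Scn9a and Scn7a follow each other with gaps of 53.1, 503, 39.2 and 38.5 kb, and their log2 differences were -0.14, 0.02, -0.57, -0.16 and 0.13. Their transcripts are alike in part: 4.03% of the 50-base stretches of Scn1a, 5.62% of Scn2a, 6.49% of Scn3a and 4.04% of Scn9a also occur in another channel gene, so a small part of their reads may have been shared out or lost. Scn4b shares none. On chromosome 14, Cacna2d3 and Cacna1d lie 318 kb apart and had the same difference, -0.29.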

How the data were processed

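Cervical cord RNA of 3 vehicle and 3 imiquimod samples was sequenced, 1 library per sample. The deposited values are the authors' FPKM, for 54532 Ensembl identifiers. Per the submitters' processing notes, which name tools without roles, the build was mm10 and the tools were DESeq2 1.16.1, HISAT2 2.0.5 and featureCounts 1.5.0-p3. Annotation release and strand setting: not given in the sources used here. Symbols matched for 54409 genes from a names table. Exon length, GC content and coordinates came from GENCODE M21 on the same build (54495 genes), and promoters from RefSeq.

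Exon length times FPKM gave whole multiples of a step that was the same for all genes of a library (97.4% to 97.6% of values under 1000 fragments, within 0.05 fragments), which gave back fragments. The implied library totals were proportional to median-of-ratios factors with a spread of 0.00895%, so scaling of that kind before deposit is inferred from the values. A gene of 2 kb with 3 fragments has 0.0639 to 0.0863 FPKM.

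The test was limma 3.58.1 (R 4.3.3) on log2(FPKM + 0.1), with the prior variance following mean level, two-sided, over 16513 genes with a mean of at least 0.5 FPKM in either group, with Benjamini-Hochberg adjustment over all of them and a threshold of 0.05. Fold changes are on that log2 scale, which understates those of low genes. The fit was tested on simulated data. Tables and figures were made in Python 3.11.15 (NumPy 2.4.6, pandas 2.3.3, matplotlib 3.10.9, SciPy 1.17.1). Alternatives were other pseudocounts, filters and scalings, voom with sample weights on the fragments, removal of length and GC trends, a replicate block and leaving out each library.

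Members, partner lists and marker lists were chosen with earlier results of these data known. Values in every library are given for genes that passed, for the 2 highest members of each family and for members whose groups did not overlap. Of partner lists the members that passed are named, and of marker lists those that passed where the list moved with a channel gene. Results of some genes, and a sum that needs one of them, are not reported here. No sample was left out.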

Additional observations from a re-analysis of the deposited data

How the results depend on the processing

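No call changed direction under any alternative run. The channel genes called numbered 1, but 2 with a minimum mean of 1 FPKM (Scn4b and Scn1a), 4 with voom sample weights (with Scn8a and Cacnb4 added), 3 with length and GC trends removed and 0 to 6 on leaving out 1 library: 0 without any one library except imiquimod 2, and 6 without imiquimod 2. The 6 partner genes called became 3 with no filter on low values, 3 with equal FPKM sums, 10 with length and GC trends removed (5 of the 6, without Sptbn1, and 5 others) and 0 to 12 on leaving out 1 library, with 0 without vehicle 1, 2 or 3 or imiquimod 3 and 12 without imiquimod 2. Marker genes called numbered 30, and 15 to 38 on leaving out 1 library (15 without each vehicle library, 19 without imiquimod 1). Over all genes, 2326 were called, and 847 to 2986 on leaving out 1 library. These were 847, 1022 and 1010 without vehicle 1, 2 and 3, and 1552, 2986 and 1260 without imiquimod 1, 2 and 3. With voom sample weights 2778 of all 16513 genes tested were called, and with length and GC trends removed 2808. With a minimum mean of 1 FPKM, 2335 of 14338 were called. Of the 972 values of single genes under alternatives, 826 kept their side of the threshold, 135 lost it and 11 gained it. Family sums kept within 1 SD in 7 of 7 alternatives, with the sodium channel alpha sum at 64.5% to 81.1% of vehicle on leaving out 1 library.

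The labels give both groups replicate numbers 1 to 3 without saying that they pair mice, and the deviations of same-numbered libraries correlated at 0.0186, -0.0970 and -0.0331, so they were not treated as pairs. With the replicate number as a block, 1330 genes were called over all genes, 1 channel gene (Scn4b) and 1 partner gene (Cntn1).

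With 3 libraries per group and a wider spread among the imiquimod libraries, log2 differences of -0.57 (Scn1a and Scn8a) did not pass, and 95% intervals of most other channel genes hold differences of either sign. For members under 0.5 FPKM, depth limits the values to at most 89 fragments per library. Tests with edgeR and DESeq2 were planned for recovered fragments and not run, because the deposited values are FPKM.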
